A study of Mus musculus with 3 samples.

Results

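The 10 genes described here carry or dampen fibroblast growth factor (FGF) signalling: the receptor gene Fgfr2, the ETS transcription factor genes Etv4 and Etv5, the Sprouty genes Spry1, Spry2 and Spry4, the phosphatase gene Dusp6, the membrane inhibitor gene Il17rd, and the Sprouty-related genes Spred1 and Spred2. They were taken by name and matched by Ensembl ID in the gene tables of 3 libraries, and all 10 were among the 30406 genes that the tables shared. The libraries are droplet single-cell RNA sequencing of dissociated E14.5 mouse lung, made with a 3′ chemistry that counts each captured RNA once by a molecular tag (UMI). There were 2 libraries of cells sorted as Epcam+ Icam+, called replicates 1 and 2, and 1 library of cells sorted as Epcam+. The embryos came from C57/B6 females, lungs were pooled before dissociation, and the labels name no mutant allele, transgene, drug or other treatment in either group. Nothing in the labels says that the libraries came from separate pools. A p-value here therefore reflects only counting error and library-to-library spread, and that spread may be technical. Between the sorts, the spread came from the 2 Epcam+ Icam+ libraries alone, since the Epcam+ sort had 1 library.

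In the branching lung, FGF10 from the mesenchyme acts on FGFR2 in the epithelium of the bud tips, where SOX9 marks the distal progenitors and SOX2 marks the proximal airway. The receptor acts through the RAS-ERK cascade, which raises Etv4 and Etv5, and these in turn raise tip genes. The same signal raises its own inhibitors: Sprouty and SPRED proteins act on the cascade near RAS and RAF, DUSP6 removes phosphate from ERK, and IL17RD (SEF) holds the pathway back at the membrane. Icam1 encodes an adhesion molecule and Epcam an epithelial surface protein, and antibodies to both were used for the sort.

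In mm10 with the GENCODE vM21 annotation, all 10 are protein-coding genes. Counts are given per gene and are not split by transcript. Fgfr2 is annotated at chr7:130162451-133123350 on the minus strand and shares exon bases on that strand with Ctbp2, so reads there could be assigned to either gene and its values are uncertain to that extent. Etv4 lies at chr11:101769742-101785371 (minus), Etv5 at chr16:22381309-22439719 (minus), Spry1 at chr3:37639947-37644598 (plus) and Spry2 at chr14:105891947-105896819 (minus). Dusp6 lies at chr10:99263231-99267489 (plus), Il17rd at chr14:27038941-27107286 (plus), Spred1 at chr2:117121374-117182279 (plus) and Spred2 at chr11:19924375-20024026 (plus). Another annotated gene, Gm42922, overlaps Spry1 on the opposite strand and was listed in none of the gene tables.

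The 250 bases before the RefSeq start site (GRCm38.p6) are shown for Etv5 and Dusp6, which differed between the Sox9 and Sox2 cells below, and for Spry2 and Spred2, which differed between the sorts. Each is written 5′ to 3′ on the gene's strand, with capitals for the ETS-type core AGGAAG or its reverse complement CTTCCT. Their positions are chr16:22439571-22439820 (Etv5, minus), chr10:99262981-99263230 (Dusp6, plus), chr14:105896820-105897069 (Spry2, minus) and chr11:19924192-19924441 (Spred2, plus).
Etv5 promoter: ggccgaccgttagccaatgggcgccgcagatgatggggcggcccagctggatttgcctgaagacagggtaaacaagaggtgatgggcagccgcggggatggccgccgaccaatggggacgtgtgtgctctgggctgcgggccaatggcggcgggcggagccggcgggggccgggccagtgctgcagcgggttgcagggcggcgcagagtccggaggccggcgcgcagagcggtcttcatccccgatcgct
Dusp6 promoter: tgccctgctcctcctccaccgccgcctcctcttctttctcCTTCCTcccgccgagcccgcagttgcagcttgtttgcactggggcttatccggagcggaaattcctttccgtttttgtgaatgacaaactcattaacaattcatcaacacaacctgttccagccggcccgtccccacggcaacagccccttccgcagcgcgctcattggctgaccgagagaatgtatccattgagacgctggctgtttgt
Spry2 promoter: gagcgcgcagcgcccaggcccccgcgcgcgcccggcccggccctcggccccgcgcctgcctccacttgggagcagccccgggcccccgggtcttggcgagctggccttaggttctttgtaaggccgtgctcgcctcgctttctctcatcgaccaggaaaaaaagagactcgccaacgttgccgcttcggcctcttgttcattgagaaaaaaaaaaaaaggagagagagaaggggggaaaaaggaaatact
Spred2 promoter: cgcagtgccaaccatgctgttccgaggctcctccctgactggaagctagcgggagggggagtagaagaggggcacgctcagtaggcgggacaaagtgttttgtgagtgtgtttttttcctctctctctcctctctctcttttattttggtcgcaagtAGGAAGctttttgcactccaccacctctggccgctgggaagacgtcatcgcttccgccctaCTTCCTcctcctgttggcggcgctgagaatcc
AGGAAG, searched on both strands, stood 1 time before Dusp6, 2 times before Spred2 and 1 time before Fgfr2. It stood in none of the other promoters searched for these genes. Of the 32817 mouse promoters in the table, 29.5% hold it. A second ETS core, CCGGAA, stood in none of the promoters searched for these genes, against 12% of all promoters. A missing match says only that these letters are not in this window. The GC content of the 4 printed promoters was 71.2% for Etv5, 62.4% for Spry2, 56.4% for Dusp6 and 56.0% for Spred2, against a median of 52.4% over all promoters. Etv4 was not matched in the promoter table, and Spry4 was left out of the promoter search.

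The libraries held 74170599 and 67843828 UMIs (Epcam+ Icam+) and 84460347 UMIs (Epcam+), and 3271, 3052 and 2902 cells were kept with medians of 19589, 19528.5 and 26668 UMIs per cell. Libraries shared 3 cell barcodes at most (3, 0 and 1 for the 3 pairs). Epithelial cells were split by the UMIs they held: Sox9-only cells (at least 1 Sox9 UMI and 0 of Sox2) numbered 967, 894 and 1455, and Sox2-only cells (the reverse) 118, 114 and 202 in Epcam+ Icam+ replicates 1 and 2 and the Epcam+ library. This order of the libraries is kept in every list of 3 values below. Cells with both numbered 35, 35 and 186, cells with neither 1014, 854 and 627, and macrophages 464, 414 and 42. A missing UMI is not absence of expression: the Sox2-only cells were shallower (medians of 19212, 17427.5 and 19538.5 UMIs) than the Sox9-only cells (23297, 24119.5 and 29850). The epithelial clusters of the Epcam+ Icam+ libraries and of the Epcam+ library hardly overlapped, and the Epcam+ library stood apart from the other 2: Sox2-only cells lay mostly in cluster 3 in the former (60.2% and 66.7%) and in cluster 16 in the latter (68.3%).

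Epcam and the macrophage gene C1qa were among the markers that named the clusters, so their levels describe the labels and do not test them. Epcam was at 1041, 1027 and 956 CPM (UMIs of a gene in every 1000000 UMIs of the class) in Sox9-only cells. In the macrophages it was at 175, 144 and 134 CPM. C1qa was at 1.12, 0.954 and 3.18 CPM in Sox9-only cells against 1929, 2034 and 2156 CPM in the macrophages. All 9 tested genes of a distal tip list were higher in Sox9-only than in Sox2-only cells (Sftpc by 4.01 on the log2 scale, SE 0.52; Bmp4 by 2.30, SE 0.17; Cxcl15 by 2.05, SE 0.13), and all 11 tested airway genes were lower (Scgb3a2 -5.95, SE 0.13; Krt15 -2.31, SE 0.22; Cldn10 -1.91, SE 0.07). Macrophage markers summed to 276, 51.6 and 44.7 CPM in Sox2-only cells and to 13.6, 14.4 and 33.7 CPM in Sox9-only cells, with all 10 of them detected in each, so the Sox2-only cells of replicate 1 carried the most macrophage RNA.

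The first question was whether the pathway's genes differed between the distal, Sox9-only and the proximal, Sox2-only epithelium of the same libraries. Etv5 and Etv4 were several-fold higher in Sox9-only cells, Dusp6 was higher by less than that and Fgfr2 by less again, and Spry1, Spry2, Spred1 and Spred2 lay close to each other in both classes. UMI counts were summed per library and class and tested with edgeR's quasi-likelihood test with library as a block and Benjamini-Hochberg adjustment. The test called 4 of the 9 members tested higher in Sox9-only cells and 0 lower, where it called 23.8% of the 12558 genes tested (13.1% higher and 10.7% lower). Spry4 had too few UMIs to be tested.

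**Figure D1:**
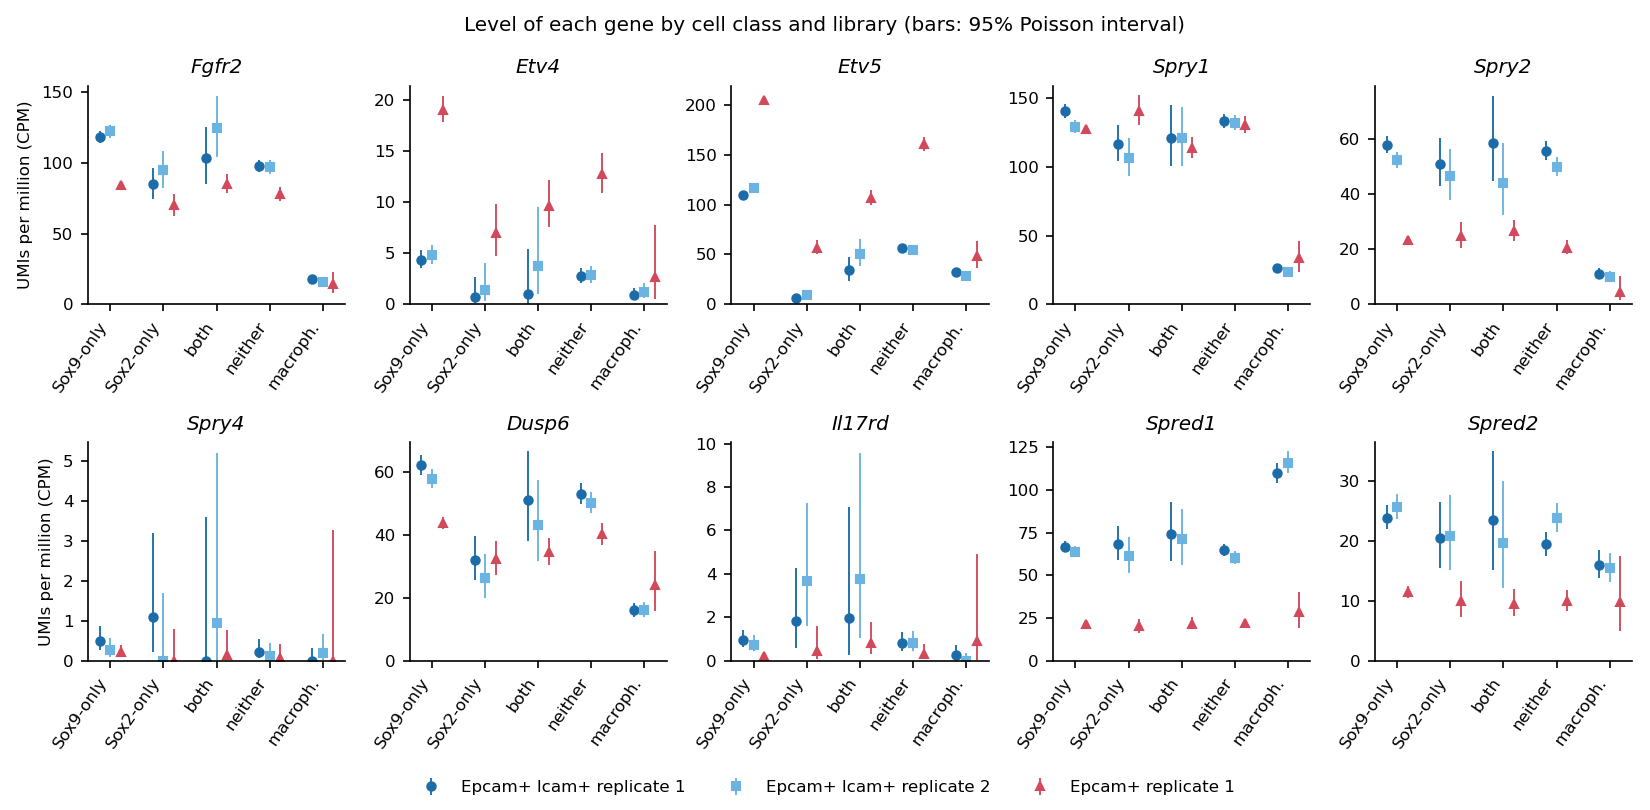
Level of each gene in CPM by cell class (Sox9-only, Sox2-only, both, neither, macrophages), with 1 point per library (circles and squares, Epcam+ Icam+ replicates 1 and 2; triangles, Epcam+) and bars for the exact 95% Poisson interval of counting error. Etv5 and Etv4 fall from Sox9-only to Sox2-only cells in every library, and the Epcam+ library lies above the others for Etv4 and Etv5 and below them for Spry2, Spred1 and Spred2 in all 4 epithelial classes.

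Etv5, an ETS factor gene induced by FGF signalling, had the largest difference of the 9 tested. It was at 110 CPM (2647 UMIs), 116 CPM (2684 UMIs) and 204 CPM (9522 UMIs) in Sox9-only cells, and at 6.56 CPM (18 UMIs), 9.21 CPM (20 UMIs) and 56.9 CPM (261 UMIs) in Sox2-only cells. Every Sox9-only value lay above every Sox2-only value, and the Epcam+ library was highest within each class. The ratio of the classes within a library was 16.7, 12.6 and 3.59, and edgeR gave a log2 difference of 2.71 (SE 0.28, adjusted p = 9.02e-05). Without the Epcam+ library the difference was 3.90 (adjusted p = 2.69e-14).

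Etv4, the close relative of Etv5, was far less often captured. It was at 4.39, 4.81 and 19.1 CPM in Sox9-only cells (106, 111 and 889 UMIs) and at 0.729, 1.38 and 6.97 CPM in Sox2-only cells (2, 3 and 32 UMIs). In each library the Sox9-only value was the higher one, but the Sox2-only value of the Epcam+ library lay above both Sox9-only values of the Epcam+ Icam+ libraries, so the classes overlapped across libraries. The log2 difference was 1.72 (SE 0.23, edgeR adjusted p = 0.000556). The 2 and 3 UMIs behind the low Epcam+ Icam+ values allow 0.0883 to 2.63 and 0.285 to 4.04 CPM (exact 95% Poisson intervals), which cover counting error only.

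Dusp6, which encodes the ERK phosphatase, was at 62.0, 57.8 and 43.7 CPM in Sox9-only cells and at 32.1, 26.2 and 32.2 CPM in Sox2-only cells. The classes did not overlap, and the library ratios were 1.93, 2.20 and 1.35. The log2 difference was 0.87 (SE 0.12, edgeR adjusted p = 0.000677).

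Fgfr2, the receptor for mesenchymal FGF10, was at 118, 122 and 84.2 CPM in Sox9-only cells and at 84.9, 94.8 and 70.2 CPM in Sox2-only cells. The Sox9-only cells were higher within each library, by ratios of 1.39, 1.29 and 1.20, while the Epcam+ Sox9-only value lay below both Epcam+ Icam+ Sox2-only values. The log2 difference was 0.44 (SE 0.08, edgeR adjusted p = 0.00244). This call was lost without Epcam+ Icam+ replicate 1 (adjusted p = 0.0586) and when every cell was thinned to 3000 UMIs before summing (log2 difference 0.19, adjusted p = 0.536).

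Spry1, an inhibitor that the receptor's signal is known to induce, was at 141, 129 and 128 CPM in Sox9-only cells and at 117, 106 and 141 CPM in Sox2-only cells. It was higher in Sox9-only cells of the Epcam+ Icam+ libraries (ratios of 1.21 and 1.22) and lower in those of the Epcam+ library (0.905). The log2 difference of 0.19 (SE 0.08) was not called by edgeR (adjusted p = 0.134), and without the Epcam+ library it was 0.32 (adjusted p = 0.00379). Spry2, the Sprouty gene best known from the bud epithelium, was at 58.0, 52.3 and 23.5 CPM against 51.0, 46.5 and 24.8 CPM. Its log2 difference of 0.16 (SE 0.09, edgeR adjusted p = 0.257) was not called, with ratios of 1.14, 1.12 and 0.945. For Spry2 the sorts lay further apart than the classes.

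Spry4 was at the edge of detection throughout, with 12, 6 and 10 UMIs in Sox9-only cells and 3, 0 and 0 in Sox2-only cells. A count of 3 UMIs is 1.09, 1.38 and 0.654 CPM in the Sox2-only cells, so a level like the 0.497, 0.260 and 0.215 CPM of the Sox9-only cells would not have been detectable there. Il17rd was nearly as rare, with 23, 17 and 10 UMIs in Sox9-only cells (0.952, 0.737 and 0.215 CPM) and 5, 8 and 2 in Sox2-only cells (1.82, 3.68 and 0.436 CPM). It was the only member tested with the Sox2-only value above the Sox9-only one in every library. The log2 difference was -1.46 (SE 0.54) and was not called by edgeR (adjusted p = 0.0777), though it passed without the Epcam+ library (-1.60, adjusted p = 0.0487).

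Spred1, whose product blocks RAF activation and which binds the RAS regulator neurofibromin, was at 66.7, 63.8 and 21.2 CPM in Sox9-only cells and at 68.2, 61.2 and 20.0 CPM in Sox2-only cells. The classes were within 1.06-fold of each other in each library (ratios 0.978, 1.04 and 1.06; log2 difference 0.10, SE 0.09, edgeR adjusted p = 0.494). Spred2, its relative, was at 23.9, 25.7 and 11.4 CPM against 20.4, 20.7 and 10.0 CPM. It was higher in Sox9-only cells of every library by ratios of 1.17, 1.24 and 1.14, and the log2 difference of 0.31 (SE 0.12, edgeR adjusted p = 0.103) was not called.

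**Figure D2:**
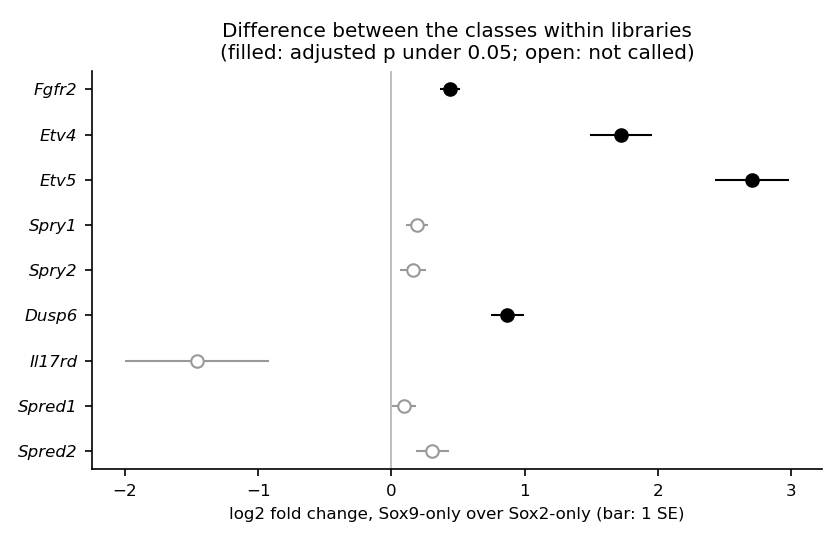
Log2 fold change of Sox9-only over Sox2-only cells for the 9 members tested, from edgeR with library as a block; bars are 1 SE, filled points have an adjusted p under 0.05 and open points were not called. Etv5 (2.71), Etv4 (1.72), Dusp6 (0.87) and Fgfr2 (0.44) are filled, and Il17rd (-1.46) has the widest bar.

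Leaving out epithelial cells with 2 or more UMIs of macrophage markers, the 4 called members had log2 differences of 0.38 (Fgfr2), 2.1 (Etv4), 2.80 (Etv5) and 0.94 (Dusp6) and stayed called. When the classes were drawn at 3000 UMIs per cell, Dusp6 (0.43, adjusted p = 0.0844) and Fgfr2 (0.21, adjusted p = 0.327) were no longer called by edgeR. With library left out of the model 0 of the 4 were called (edgeR adjusted p from 0.13 for Dusp6 to 0.733 for Etv4).

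The other genes of the pathway are given by list, and over all genes tested 13.1% were called higher and 10.7% lower in Sox9-only cells. The receptors and co-receptors moved in both directions: 5 of 8 were higher and 2 lower. Their list median was 0.37 on the log2 scale, against 0.02 over all genes tested. The higher ones were the receptor gene Fgfr4 (2.30, SE 0.25), the decoy-like receptor gene Fgfrl1 (0.87, SE 0.11), and the heparan sulfate proteoglycan genes Gpc3 (0.62, SE 0.10), Gpc4 (0.47, SE 0.14) and Sdc1 (0.26, SE 0.08). The lower ones were Fgfr3 (-0.82, SE 0.16) and Fgfr1 (-0.46, SE 0.12), so the receptor genes did not share a direction. Of 8 FGF ligand genes 4 could be tested, and 3 were higher in Sox9-only cells: Fgf9 (2.70, SE 0.44), Fgf20 (2.22, SE 0.57) and Fgf18 (1.13, SE 0.36), all with a mean under 3 CPM. Fgf1 was not called (-0.60, SE 0.21). Fgfr4, Gpc4, Fgf9, Fgf18 and Fgf20 here, and Sulf2, Dusp7, Errfi1, Dusp5 and Fgf1, were named after their values were seen, because the counts are small. Fgfr4, Gpc4, Sulf2 and Dusp7 missed the mean of 20 CPM set for naming list genes.

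Of the cascade genes between receptor and ETS factors, 2 of 19 were higher, among them the ERK kinase gene Map2k2 (0.27, SE 0.07). None was lower, and the median was -0.13. The share called higher was near the 13.1% of all genes, and nothing particular to the cascade was tested. Of 10 tested heparan sulfate genes 1 was higher, the sulfatase gene Sulf2 (1.02, SE 0.22), and the list median was 0.11. Other ERK-induced genes split: of 15 tested, 3 were higher and 5 lower, with a median of -0.24. Phlda1 (1.12, SE 0.11), Dusp7 (0.84, SE 0.18), an ERK phosphatase gene, and Ier3 (0.30, SE 0.08) were higher in Sox9-only cells. The immediate-early genes Fos (-1.15, SE 0.09) and Egr1 (-1.07, SE 0.13), with Myc (-1.13, SE 0.14), the EGF receptor inhibitor gene Errfi1 (-0.62, SE 0.07) and the ERK phosphatase gene Dusp5 (-0.59, SE 0.10), were lower. Dusp6 and Dusp7 thus lay in the opposite direction to Dusp5, Fos and Egr1 between the same cells.

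Cells with both UMIs and cells with neither placed Etv5 between the classes in each library. Its level was 34.3, 50.5 and 107 CPM in cells with both and 56.9, 54.0 and 160.3 CPM in cells with neither, so the order was Sox9-only, neither, both, Sox2-only in replicate 1 and the Epcam+ library. In replicate 2 the 95% intervals of both and neither overlapped (37.9 to 65.9 against 50.5 to 57.7 CPM). Dusp6 was also highest in Sox9-only and lowest in Sox2-only cells of each library. In the Epcam+ Icam+ libraries it was at 50.9 and 43.0 CPM in cells with both and 53.1 and 50.2 CPM in cells with neither. In the Epcam+ library Dusp6 was at 34.4 CPM in cells with both, whose interval of 30.3 to 38.9 CPM holds the Sox2-only value. Spry1 was at 121, 121 and 114 CPM in cells with both and 133, 132 and 131 CPM in cells with neither, close to the Sox9-only values.

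Within the epithelium of each library, Etv5 also increased with the number of Sox9 UMIs when every cell was thinned to 10000 UMIs. In replicate 1 it was at 57.4, 94.6, 116 and 205 CPM in cells with 0, 1, 2 to 3, and 4 or more Sox9 UMIs. In replicate 2 it was at 60.3, 91.1, 137 and 182 CPM, and in the Epcam+ library at 159, 183, 217 and 248.7 CPM. The highest bin held only 20, 22 and 39 cells, and over the first 3 bins alone the order was the same in every library. The Epcam+ cells without a Sox9 UMI were above the Epcam+ Icam+ cells with 2 to 3. Etv4 in the Epcam+ library was at 12.5, 16.6, 18.1 and 46.2 CPM in the same bins, with only 18 UMIs in the last.

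**Figure D3:**
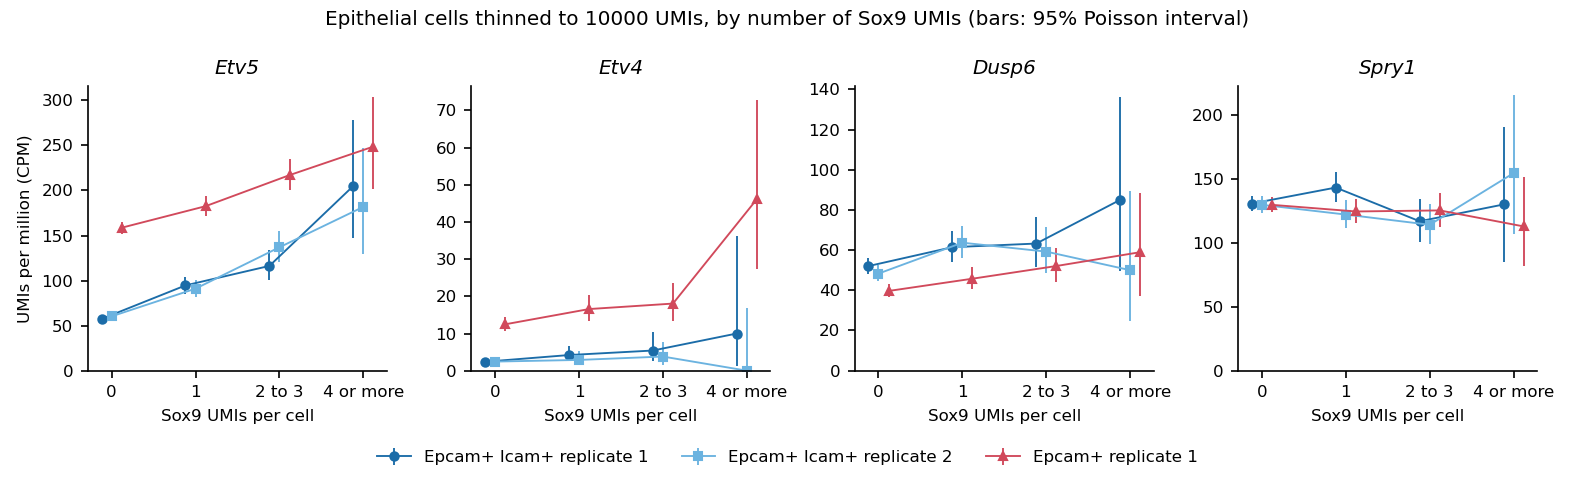
Level of Etv5, Etv4, Dusp6 and Spry1 (CPM) in epithelial cells thinned to 10000 UMIs, by the number of Sox9 UMIs in the cell, 1 line per library with exact 95% Poisson intervals. Etv5 climbs in all 3 libraries, from 57.4 to 205 CPM in Epcam+ Icam+ replicate 1, while Spry1 stays between 113 and 155 CPM.

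Dusp6 was at 52.0, 61.4, 63.3 and 85.0 CPM across the Sox9 bins in replicate 1, at 48.3, 63.7, 59.2 and 50 CPM in replicate 2, and at 39.7, 45.8, 52.1 and 59.0 CPM in the Epcam+ library. The step from 0 to 1 Sox9 UMI was upward in each library, and the later steps were not in replicate 2. Binned by Sox2 UMIs, Etv5 went the other way. In the Epcam+ library it was at 184, 72.9, 49.1 and 41.2 CPM in cells with 0, 1, 2 to 3, and 4 or more Sox2 UMIs. In replicates 1 and 2 it fell from 75.0 and 80.1 CPM without a Sox2 UMI to 8.62 and 12 CPM with 1, where only 5 and 6 Etv5 UMIs were counted. These are descriptions of pooled cells, not replicates, and no test was made.

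The epithelial clusters give the same picture at a finer grain. Etv5 was at 7.38 and 10.8 CPM in cluster 3, led by Scgb3a2, Cdh2 and Cyp2f2, and at 41.9 and 40.3 CPM in cluster 4, led by Sprr1a, Clic5, F3, Lmo7 and Hopx. It was at 115 and 110 CPM in cluster 5, led by Sftpc. Dusp6 did not follow it: it was at 36.3 and 28.2 CPM in cluster 3 but at 67.2 and 60.6 CPM in cluster 4, above the 51.9 and 51.1 CPM of cluster 5. In the Epcam+ library Etv5 was at 64.0 CPM in cluster 16, led by Sox2, at 131 CPM in cluster 17 and at 174 to 237 CPM in clusters 18, 19 and 20. Clusters were made from all genes, these included, so their levels are a description.

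Macrophages from the same libraries offered a cell type outside the epithelium. They were named from their markers, led by Pf4, Mrc1 and C1qa, but they carried epithelial RNA: the 9 epithelial markers stood at a median of 20.4%, 18.7% and 19.3% of their level in Sox9-only cells (14.0% to 35.2% over all markers and libraries). Fgfr2 was at 15%, 12.8% and 16.8% of its Sox9-only level, and Spry1 at 18.7%, 18.2% and 26.4%. Spry2 was at 19.3%, 18.9% and 18.8% (136, 107 and 5 UMIs), and Etv4 at 20.6%, 24.9% and 13.9% (only 11, 13 and 3 UMIs). None of these lay above the range of the epithelial markers in its own library, so they cannot be told apart from the epithelial RNA in this cluster, whose source was not tested. Etv5, at 32.8, 28.3 and 48.6 CPM, was at 30%, 24.3% and 23.8% and lay above the 26.7% of the highest epithelial marker in replicate 1 only.

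The SPRED genes lay above the range of the epithelial markers in the macrophages. Spred1 was at 110.0, 116 and 28.3 CPM there, or 165%, 182% and 133% of its level in Sox9-only cells. At 3000 UMIs per cell, 24.3%, 27.6% and 7.14% of macrophages held a Spred1 UMI, against 16.6%, 15.6% and 6.88% of Sox9-only cells, and 82.8%, 86.2% and 42.9% of macrophages did before thinning. Epcam was at the same depth found in 28.0%, 20.1% and 26.2% of macrophages against 93.6%, 92.2% and 93.5% of Sox9-only cells. The macrophage share thus lay above the Sox9-only share for Spred1 and below it for Epcam in the Epcam+ Icam+ libraries. In the Epcam+ library the 95% interval of Spred1 in macrophages, 19.4 to 40.0 CPM, holds the Sox9-only value. Spred2 was at 16.0, 15.4 and 9.73 CPM, or 67.2%, 60.1% and 85.4% of the Sox9-only level, on 11 UMIs in the Epcam+ library. Dusp6, at 16.0, 16.1 and 23.9 CPM, was at 25.7%, 27.8% and 54.7% of the Sox9-only level. It lay above the highest epithelial marker in replicate 2 (26.5%) and in the Epcam+ library, where it rests on 27 UMIs in 42 cells.

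**Figure D4:**
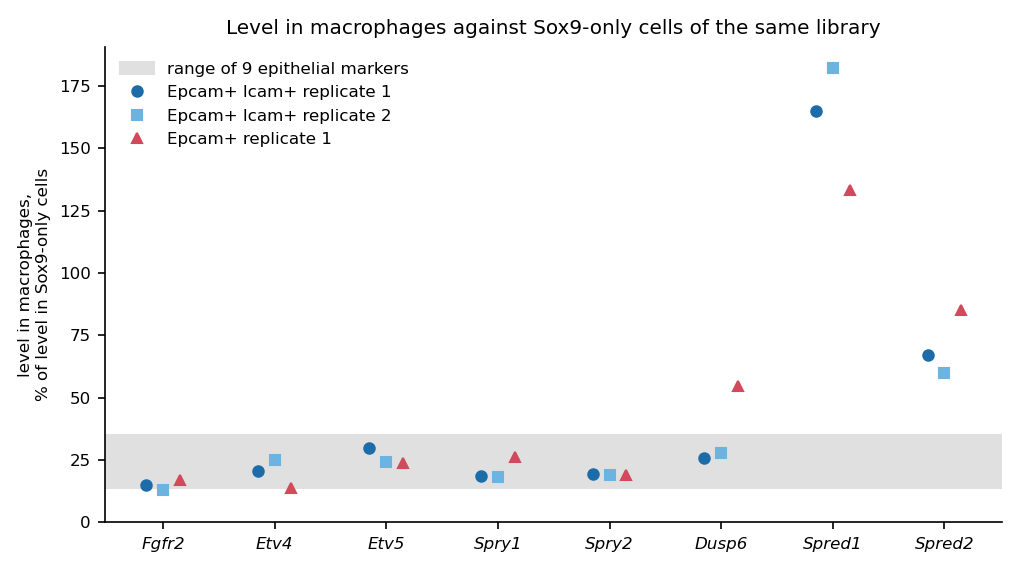
Level of 8 members in macrophages as a percent of their level in Sox9-only cells of the same library; the grey band is the range of 9 epithelial markers over the 3 libraries (14.0% to 35.2%). Spred1 and Spred2 lie above the band in every library and Dusp6 in the Epcam+ library only.

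A second myeloid cluster, left unnamed and led by Lyz2, Cytip, S100a4 and Ccr2, carried less epithelial RNA, with the 9 markers at a median of 2.30% and 2.55% of the Sox9-only level in its 132 and 134 Epcam+ Icam+ cells. There Fgfr2 was at 2.87 and 0.284 CPM (10 and 1 UMIs), Spry1 at 3.16 and 1.99 CPM and Spry2 at 1.72 and 1.99 CPM. Spred1 was at 26.2 and 28.4 CPM, Spred2 at 9.77 and 14.48 CPM and Dusp6 at 19.5 and 26.4 CPM. Etv5 was at 14.1 and 10.8 CPM, above the Sox2-only value of the same library. The receptor and Sprouty genes were thus near 0 in these cells while Spred1, Spred2, Dusp6 and Etv5 were not. The Epcam+ library held only 6 such cells.

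The second question was how the sorts differed within a class. Icam1, the gene of the sorting antibody, was at 191, 186 and 154 CPM in Sox9-only cells and at 198, 177 and 185 CPM in Sox2-only cells. The Epcam+ library was the lowest of the 3 in Sox9-only cells and lay between the others in Sox2-only cells. The sort, the run and its reads, the software version and the gene table behind the counts changed together between the groups and cannot be told apart, and with 2 libraries against 1 the test had 1 residual degree of freedom. The edgeR test called 78.4% of 13628 genes in Sox9-only cells (39.4% higher and 39% lower in Epcam+ Icam+), 51.6% of 10861 in Sox2-only cells (26.1% higher and 25.5% lower) and 35.9% of 12354 in macrophages (19.8% higher and 16% lower). Against these shares a call of a member is ordinary, and the values below are given for their size.

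In Sox9-only cells 6 of the 10 members were called higher in the Epcam+ Icam+ libraries and 2 lower. Etv4 (-2.18 on the log2 scale, SE 0.10) and Etv5 (-0.98, SE 0.04) were lower. Spred1 (1.49, SE 0.07), Spry2 (1.11, SE 0.07) and Spred2 (1.00, SE 0.08) were higher by about as much as Etv5 was lower or more, and Fgfr2 (0.39, SE 0.04) and Dusp6 (0.33, SE 0.06) by less. Il17rd was called (1.84, SE 0.50), on 10 to 23 UMIs a library, and the call was lost with DESeq2 (adjusted p = 0.0959). Spry1 (-0.04, SE 0.04, edgeR adjusted p = 0.308) and Spry4 (0.69, SE 0.61, adjusted p = 0.293) were not called. The inducible ETS genes and the SPRED and Sprouty 2 genes therefore lay in opposite directions between the same libraries.

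In Sox2-only cells 3 of 9 members were called higher and 3 lower. Spred1 (1.61, SE 0.17), Spred2 (0.95, SE 0.27) and Spry2 (0.89, SE 0.18) were again higher, and Etv5 (-2.95, SE 0.24), Etv4 (-2.81, SE 0.72) and Spry1 (-0.42, SE 0.12) lower. Fgfr2 (0.27, SE 0.13, edgeR adjusted p = 0.0837), Dusp6 (-0.22, SE 0.21, adjusted p = 0.389) and Il17rd (2.44, SE 1.27, adjusted p = 0.106) were not called. With DESeq2, Spry1 (adjusted p = 0.211), Spry2 (adjusted p = 0.0971) and Spred2 (adjusted p = 0.276) were not called.

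In macrophages 1 of 8 members was called higher, Spred1 (2.03, SE 0.19, edgeR adjusted p = 3.96e-09), and 1 lower, Etv5 (-0.64, SE 0.20, adjusted p = 0.0158), the latter lost with DESeq2 (adjusted p = 0.126). Spry2 (1.28, SE 0.52, adjusted p = 0.0585), Spred2 (0.72, SE 0.37, adjusted p = 0.159) and Etv4 (-1.30, SE 1.13, adjusted p = 0.395) had the sign they had in the epithelium and were not called. The Epcam+ library had 42 macrophages, and the part of the epithelial RNA in the macrophage cluster in these differences was not tested.

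**Figure D5:**
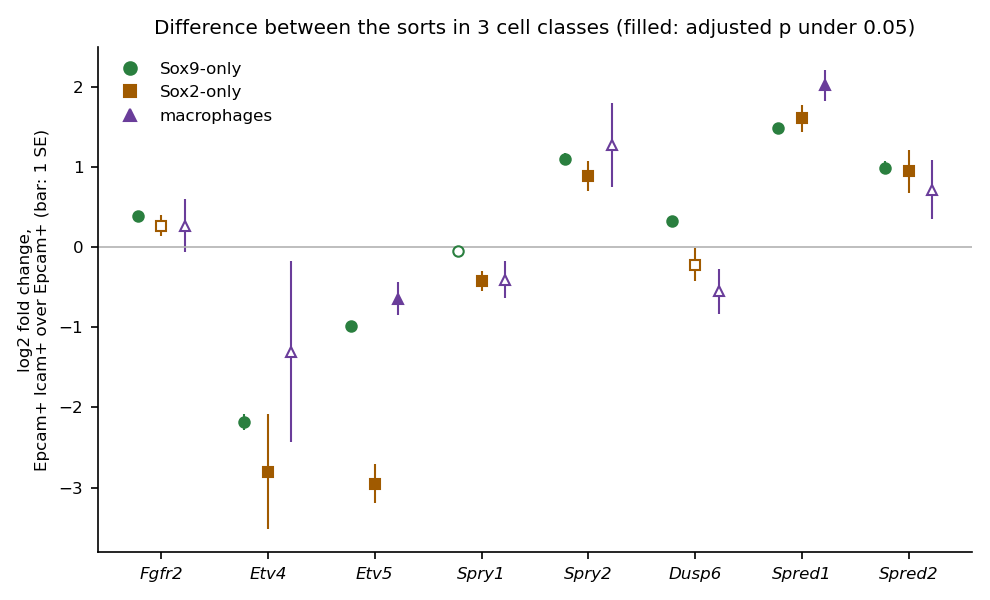
Log2 fold change of Epcam+ Icam+ over Epcam+ for 8 members in Sox9-only cells (circles), Sox2-only cells (squares) and macrophages (triangles), with bars of 1 SE and filled symbols for an edgeR adjusted p under 0.05. Spred1 lies above 1 in all 3 classes, and Etv5 lies at -0.98, -2.95 and -0.64.

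The difference between the sorts was itself compared between classes. Between Sox9-only and Sox2-only cells, edgeR called 2.4% of 13814 genes (1.14% higher and 1.25% lower) and 1 of the 10 members, Etv5. Its log2 sort difference was less negative in Sox9-only cells (-0.98) than in Sox2-only cells (-2.95). The term for this was 1.93 (SE 0.23, edgeR adjusted p = 1.48e-07). Spry1 (0.33, SE 0.12, adjusted p = 0.165) and Dusp6 (0.51, SE 0.20, adjusted p = 0.211) were not called, and Spred1 (-0.16, SE 0.20), Spry2 (0.17, SE 0.19) and Spred2 (-0.01, SE 0.27) had standard errors as large as the difference or nearly so. Between Sox9-only cells and macrophages edgeR called 12.7% of 14259 genes (1.52% higher and 11.2% lower) and 0 of 9 members, of which 3 had an unadjusted p under 0.05. Those were Spred1 (-0.66, SE 0.24, adjusted p = 0.0536), Etv5 (-0.47, SE 0.19, adjusted p = 0.0941) and Dusp6 (0.75, SE 0.31, adjusted p = 0.0979). DESeq2 also called 0 members there. Other alternatives did call some: Spred1 was lower with no filter on low counts, with no doublet removal and without epithelial cells with macrophage transcripts, 2 members were higher with a marker gate in place of clusters, and 3 were higher with no doublet removal, where Fgfr2 (0.49) and Spry2 (0.79) changed sign. Another scaling (RLE) moved the median of all genes by 0.14 in that last comparison and the higher share of its calls from 12% to 27.0%.

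The lists are given for their values, beside the shares of all genes called above (39.4% higher and 39% lower in Sox9-only cells, 26.1% and 25.5% in Sox2-only cells), and nothing particular to them was tested. In Sox9-only cells 7 of 10 distal tip genes were lower in Epcam+ Icam+ and 2 higher (median -1.11, against 0.02 over all genes), and in Sox2-only cells 7 of 9 were lower and 0 higher (median -1.09, against 0.01). Of other ERK-induced genes, 11 of 15 were higher and 3 lower in Sox9-only cells (median 0.85) and 9 of 14 higher and 2 lower in Sox2-only cells (median 0.84). Of the cascade genes 12 of 19 were higher and 6 lower in Sox9-only cells (median 0.37).

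The genes most like 3 of the members were sought over 15 sums (5 classes in 3 libraries, each library's mean taken out) among 5328 genes, by Pearson's correlation of log2(CPM + 5). These correlations are descriptions, over points that share libraries and depth and include the macrophage sums. Between Sox9-only and Sox2-only cells the ratios were 1.14, 1.12 and 0.945 for Spry2 and 0.978, 1.04 and 1.06 for Spred1. Macrophages stood at 19.3%, 18.9% and 18.8% of the Sox9-only level for Spry2 and at 165%, 182% and 133% for Spred1. How much of a correlation comes from the macrophage sums was not tested. Those nearest Etv5 were Dram1 (0.98), Dlk1 (0.97), Cytl1 (0.96) and the surfactant gene Sftpc (0.95), while Etv4 stood at 0.79 and Dusp6 at 0.65. Those nearest Spry2 were Ryk, Crb3, Sinhcaf and Mex3d (all 0.99), with Spry1 and Fgfr2 also at 0.99 and Spred1 at -0.94. Those nearest Dusp6 were the basement membrane gene Col4a4 (0.99), Spr (0.97), the perlecan gene Hspg2 (0.97) and the tip gene Foxp2 (0.97).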

How the data were processed

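Each deposited matrix holds raw UMI counts for genes by barcodes. The submitters' processing notes name Cell Ranger 2.1.1 and mm10 for what the authors ran, while per the file headers version 5.0.1 wrote the Epcam+ Icam+ matrices (32285 genes) and 3.0.2 the Epcam+ matrix (31053 genes), and the annotation behind the counts is not given in the sources used here. Groups came from the sample titles. Genes were joined by Ensembl ID (30406 kept). Barcodes had at least 1000 UMIs, 500 genes and at most 10% mitochondrial UMIs (3400, 3167 and 2990). Scrublet's automatic threshold called 0 doublets in each library and was not used, so a fixed 0.8% per 1000 barcodes, taken from the top of its score, was left out (129, 115 and 88). Free RNA was not removed.

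Cells were clustered jointly with scanpy 1.11.5 in Python 3.11.15 (2000 variable genes, 30 components, 15 neighbours, resolution 1). A cluster was named only where its median depth was at least 33.3% of the library's. It was called epithelial where the epithelial marker panel was at least 4 times the panel of every other cell type. No marker of another cell type could stand among its 10 leading genes. It was called macrophage where the macrophage panel was the highest outside the epithelium and at least 4 times the epithelial panel. At least 8 of 10 macrophage markers also had to be raised there. Among the 10 leading genes, macrophage markers had to outnumber all other markers. These naming thresholds were set after seeing the clusters, and the remaining clusters stayed unnamed. Counts summed per library and class were tested with edgeR 4.0.16 in R 4.3.3 (quasi-likelihood F test, TMM scaling, filterByExpr, Benjamini-Hochberg at 0.05), with DESeq2 1.42.0 as an alternative. An SE is the log2 difference over the square root of F. On simulated counts with 200 genes changed by 1 on the log2 scale, the share recovered was 100% in the class comparison (12255 genes) and 79.5% in macrophages (12157 genes). Levels have exact 95% Poisson intervals. For shares, cells were thinned to 3000 UMIs, leaving out 2 cells at most of the Sox9-only class per library. Promoters came from RefSeq (GRCm38.p6).

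The class comparison had library as a block. The members, lists and tests were chosen with earlier results of these data known. All 10 members were named, with up to 3 genes of each list in each direction where the mean reached 20 CPM, and the 4 genes most like Etv5, Spry2 and Dusp6. Where a list had 5 or fewer calls in a direction, further called genes were named after their values were seen. The values of 1 list gene are not reported here.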

Additional observations from a re-analysis of the deposited data

Results flagged for a closer look

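The difference between the sorts in Etv5 was not the same in the 2 epithelial classes. The test of the difference itself, a class-by-sort term with library as a block, gave 1.93 on the log2 scale (SE 0.23, edgeR adjusted p = 1.48e-07). On that scale Etv5 was lower in Epcam+ Icam+ by more in Sox2-only cells (-2.95) than in Sox9-only cells (-0.98). In CPM the sorts lay further apart in Sox9-only cells. In Sox9-only cells Etv5 was at 110 and 116 CPM in the Epcam+ Icam+ libraries and 204 CPM in the Epcam+ library, and in Sox2-only cells at 6.56, 9.21 and 56.9 CPM. The term lay between 1.46 and 2.32 over 13 alternatives, and every one of the 11 that allow a test called it (adjusted p from 1.83e-14 to 0.00338). The Sox2-only cells of the 2 sorts came mostly from different clusters, 3 and 16, with Etv5 at 7.38 and 10.8 CPM against 64.0 CPM. Whether that difference in cell make-up bears on the value was not tested.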

How the results depend on the processing

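In the class comparison, the members called higher were 4, and 2 with classes drawn at 3000 UMIs per cell and with cells thinned to 3000 UMIs before summing, where Etv4 had too few counts to be tested; all genes called were 2991, and 1639 and 847 there. With no replicate block (library left out of the model) 0 members and 103 genes were called (Fgfr2 0.562, Etv4 0.733, Etv5 0.325 and Dusp6 0.13 as adjusted p), while the 4 log2 differences stayed between 0.44 and 2.60; the cause was not tested. Members called lower were 0, and 1 (Il17rd) with the marker gate and with inclusive classes. Leaving out 1 library gave 3 to 5 members higher, 0 to 1 lower and 1137 to 3382 genes. No paired analysis was possible between the sorts because the Epcam+ library has no replicate number, and leaving out a library there left values with no test. In Sox2-only cells between sorts, DESeq2 called 1 member higher, 1 lower and 1860 genes against 5599, classes at 3000 UMIs gave 1 lower and 2868 genes, and at least 2 UMIs gave 3567 genes. In macrophages DESeq2 called 0 members lower and 2328 genes against 4429, and no doublet removal gave 2 higher and 3 lower. Between Sox9-only and Sox2-only sort differences, genes called were 331, and 20 with DESeq2, 58 with classes at 3000 UMIs, 697 with inclusive classes and 641 with unnamed clusters added, the last chosen after seeing the data. Between Sox9-only cells and macrophages, genes called were 1807, and 1134 with RLE scaling, 202 with DESeq2 and 1121 with classes at 3000 UMIs. There 1 member (Spred1) was lower with no filter on low counts and without epithelial cells with macrophage transcripts, 2 were higher with the marker gate, and 3 were higher and 1 lower with no doublet removal, where Fgfr2 (0.49) and Spry2 (0.79) reversed sign; the macrophages were then 376, 331 and 92 cells. The stricter cell filter could not be fitted for the 2 macrophage comparisons, since it left 0 macrophages in the Epcam+ library. Few UMIs limit Spry4, Il17rd and Etv4.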
